A study of Rattus norvegicus with 35 samples.

Results

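MicroRNAs (miRNAs) were compared between livers of rats given the middle dose of ketoconazole for 14 days and livers of rats given the vehicle for the same time. The libraries were taken by their labels: 3 of the middle dose on day 14 and 2 of control on day 14, which makes 5 of the 35 libraries of the study. The animals were male rats of the Sprague-Dawley strain, 6 weeks old, and dosing was oral. The middle dose was 30 mg/kg ketoconazole per day, the controls received 0.5% methylcellulose alone, and liver sampling followed 24 h later than the last dose. The study also gave 10 mg/kg (low) and 100 mg/kg (high), and also dosed for 3 and 7 days, to look for miRNA markers of liver injury by the drug. Control day 14 was the one group of the 12 with 2 libraries instead of 3. The table held 763 rat miRNAs, of which 328 passed a filter on low counts and were tested.

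A miRNA is a short RNA cut from a hairpin precursor. One arm of the hairpin usually becomes the guide strand, which pairs with messenger RNAs mainly through its seed, bases 2 to 8 from the 5′ end, and lowers their translation and stability. The other arm, the passenger strand, is mostly degraded. Ketoconazole is an azole antifungal that blocks sterol synthesis, inhibits several cytochrome P450 enzymes and can cause liver injury as a side effect.

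Mature sequences came from RefSeq (rat assembly GRCr8), which matched 292 of the 328 tested miRNAs by name. The seed is in capitals in each. The first set holds the 6 miRNAs with the largest rises by the naming rule, and the 2 falls whose call was kept under every alternative setting tried.
miR-128-3p: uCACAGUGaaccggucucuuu
miR-22-5p: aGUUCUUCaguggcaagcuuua
miR-671: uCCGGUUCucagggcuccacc
miR-322-3p: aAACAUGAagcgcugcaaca
miR-28-3p: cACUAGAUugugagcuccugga
miR-191a-5p: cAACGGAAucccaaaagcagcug
miR-363-3p: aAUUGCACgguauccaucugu
miR-466c-5p: uGUGAUGUguguauguacaug
None of these 8 shares its seed with another of them.

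The second set shows miRNAs that share a seed, because such relatives are set side by side in the results. In the seed group of miR-363-3p, that miRNA was lower in treated livers while miR-92a-3p and miR-92b-3p were higher.
miR-92a-3p: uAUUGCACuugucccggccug
miR-92b-3p: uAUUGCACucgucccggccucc
miR-25-3p: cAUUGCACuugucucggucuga
miR-32-5p: uAUUGCACauuacuaaguugca
The miR-15/16 seed group holds several of the falls, and the 5p arm of the miR-322 hairpin belongs to it.
miR-16-5p: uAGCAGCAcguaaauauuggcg
miR-497-5p: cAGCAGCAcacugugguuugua
miR-322-5p: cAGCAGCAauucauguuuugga
miR-221-3p and miR-222-3p share their seed and both were higher in treated livers, as were the 3 members of the miR-30 seed group that RefSeq holds.
miR-221-3p: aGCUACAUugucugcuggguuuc
miR-222-3p: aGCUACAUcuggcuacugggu
miR-30a-5p: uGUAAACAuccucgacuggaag
miR-30c-5p: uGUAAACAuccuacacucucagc
miR-30e-5p: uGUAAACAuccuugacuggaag
The miR-34 seed group is shown because its members were called in opposite directions.
miR-34a-5p: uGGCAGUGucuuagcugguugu
miR-34c-5p: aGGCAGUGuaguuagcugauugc

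Total counts were 3286667, 9665416 and 9407702 in middle dose replicates 1 to 3, against 3177390 and 4367572 in the control libraries. The totals of middle dose replicates 2 and 3 are sums of 2 sequencing runs each. Over all 35 libraries the totals ran from 2665943 to 9665416. The libraries formed 2 clusters along the first principal component, which held 46.2% of the variance. The middle dose libraries of day 14 lay between 5.03 and 6.37, the control libraries at -7.06 and -7.81, the low dose libraries of day 14 between -8.26 and -5.46, and the high dose libraries of day 14 between 6.25 and 6.35. The labels name no batch, so treatment and any technical split along the same line cannot be told apart in the comparison with controls or with the low dose. High and middle dose libraries lay in the same cluster. The low dose libraries of day 7 also lay on that side, between 4.24 and 4.67, while those of day 3 lay between -9.65 and -4.32. The split thus did not follow dose alone. The labels do not tell whether replicates were separate animals, so the p-values reflect the scatter of the libraries at hand.

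At day 14 the middle dose was accompanied by wide changes in liver miRNAs, with the larger ones upward. In all, 93 of the 328 miRNAs (28.4%) had a p under 0.05 in edgeR's quasi-likelihood test after Benjamini-Hochberg adjustment. Of these, 60 (18.3% of those tested) were higher and 33 (10.1%) lower in middle dose livers. At least 2-fold changes were seen in 41 (12.5%), of which 33 were higher and 8 lower. At least 4-fold changes were seen in 12, all higher. The median log2 fold change was 1.09 over the higher calls, -0.66 over the lower calls and 0.03 over all miRNAs tested. The balance of directions moved with the settings: the calls were 55 higher and 46 lower with DESeq2's size factors, and 44 higher and 72 lower with library size alone, where the median over all miRNAs tested was -0.19. Counts thinned to one depth gave 49 higher and 46 lower, and DESeq2 gave 58 higher and 45 lower. For 88 of the 93 the middle dose libraries lay all on one side of both controls, which also held for 146 of all 328 (44.5%; 80, or 24.4%, above the controls and 66, or 20.1%, below them). The 5 others were miR-10a-5p, miR-34c-5p, miR-99a-3p, miR-455-3p and miR-511-5p. Leaving out control replicate 1 gave 54 calls (43 higher, 11 lower), and leaving out control replicate 2 gave 62 (46 higher, 16 lower).

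**Figure D1:**
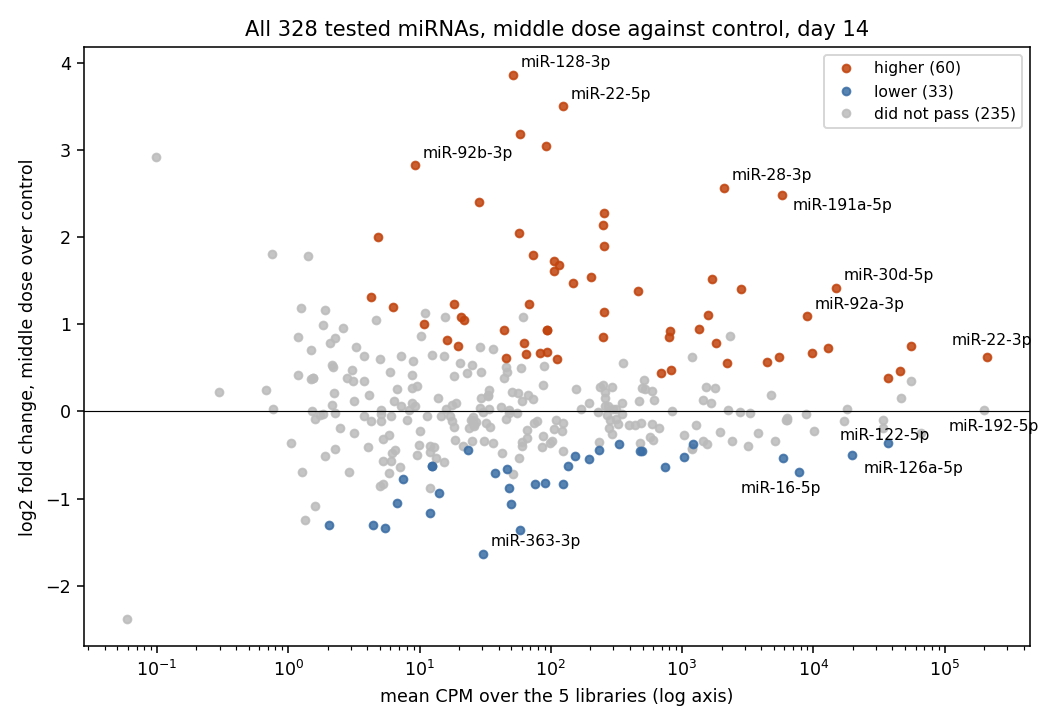
Each point is one of the 328 tested miRNAs, with its mean level over the 3 middle dose and 2 control libraries of day 14 (TMM-scaled CPM, log axis) on the x axis and its log2 fold change, middle dose over control, on the y axis. The 60 higher calls reach 3.86 at miR-128-3p, while the 33 lower calls end at -1.63 at miR-363-3p, and miR-22-3p and miR-192-5p, farthest right, lie at 0.63 and 0.02.

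The 6 most abundant miRNAs of these livers, and miR-122-5p, were called at changes of less than 2-fold or did not pass. Levels are given as CPM, the counts scaled to a common library total, after TMM scaling, which corrects that total for a few dominant RNAs. miR-22-3p was the most abundant, at 208326, 256759.8 and 265621 CPM in middle dose livers and 147389 and 168107 CPM in control livers. It was higher in all 3 treated libraries, with a log2 fold change of 0.63 ± 0.12 (SE; edgeR adjusted p = 0.000132). miR-192-5p, made in liver and intestine from a cluster with miR-194, had 183985, 234626 and 180492 CPM in middle dose livers and 190947 and 202312 CPM in control livers. Its groups overlapped and its log2 fold change was 0.02 ± 0.11 (SE; edgeR adjusted p = 0.942). With library size alone it was -0.20 and passed as lower (edgeR adjusted p = 0.0486). miR-122-5p, the miRNA most specific to hepatocytes, had 29952, 39292 and 29312 CPM in middle dose livers and 33889 and 36548 CPM in control livers. These groups overlapped too, with a log2 fold change of -0.10 ± 0.16 (SE; edgeR adjusted p = 0.732). miR-21-5p, which rises in many forms of tissue injury, had 48739.8, 58535 and 76016 CPM in middle dose livers and 67816 and 77438 CPM in control livers, at a log2 fold change of -0.25 ± 0.20 (SE; edgeR adjusted p = 0.408), and passed as lower with library size alone (-0.47, edgeR adjusted p = 0.0467). miR-26a-5p, at 61008 ± 6157 CPM in middle dose livers (SD, n = 3) and 48032 ± 774 CPM in control livers (SD, n = 2), had a log2 fold change of 0.35 ± 0.13 (SE; edgeR adjusted p = 0.0527), and passed under 3 of the 16 alternatives. miR-148a-3p, a liver miRNA that represses the LDL receptor in human and mouse liver cells, was higher: 71051, 56858 and 70011 CPM in middle dose livers and 41615 and 36767 CPM in control livers, with a log2 fold change of 0.75 ± 0.16 (SE; edgeR adjusted p = 0.000748).

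The largest rises were in miRNAs of low to moderate level in control livers. The leading rises were named only where the groups did not overlap, so that trait is no separate evidence for them. miR-128-3p, abundant in brain and known to repress the cholesterol exporter ABCA1 in human cells, had 102, 62.5 and 80.2 CPM in middle dose livers and 6.85 and 4.42 CPM in control livers. The lowest treated library was far above the higher control, and the log2 fold change was 3.86 ± 0.43 (SE; edgeR adjusted p = 2.33e-08), a fold of 14.5. miR-22-5p, the passenger strand of the miR-22 hairpin, had 191, 161 and 230.2 CPM in middle dose livers and 19.3 and 15.1 CPM in control livers, a log2 fold change of 3.50 ± 0.29 (SE; edgeR adjusted p = 6.63e-11). miR-671 had 88.8, 102 and 81.4 CPM in middle dose livers and 10.7 and 9.31 CPM in control livers, a log2 fold change of 3.18 ± 0.35 (SE; edgeR adjusted p = 2.26e-08). Both groups were tight and apart for these. miR-322-3p, from the rodent counterpart of the human miR-424 hairpin, had 159, 132 and 137 CPM in middle dose livers and 17.6 and 17.0 CPM in control livers, with a log2 fold change of 3.04 ± 0.24 (SE; edgeR adjusted p = 1.97e-11).

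Among the leading rises, miR-28-3p and miR-191a-5p had the highest levels. miR-28-3p, from a hairpin in an intron of Lpp, had 3688, 2944 and 2685 CPM in middle dose livers and 515 and 538 CPM in control livers, a log2 fold change of 2.56 ± 0.23 (SE; edgeR adjusted p = 1.39e-10). miR-191a-5p, from a hairpin next to miR-425, had 9150.3, 9972 and 6839.6 CPM in middle dose livers and 1662 and 1430.2 CPM in control livers, a log2 fold change of 2.48 ± 0.22 (SE; edgeR adjusted p = 1.07e-10). In both the treated libraries were several times the controls, with no overlap. Its neighbour miR-425-5p did not follow it: 234, 209.6 and 169 CPM in middle dose livers and 294 and 259.9 CPM in control livers, a fall with a log2 fold change of -0.44 ± 0.14 (SE; edgeR adjusted p = 0.0199), which no longer passed without control replicate 1 (-0.35) or middle dose replicate 3 (-0.32), or with the replicate block (-0.40) or with the 2 groups fitted alone (-0.41). miR-425-5p was picked out after its value was seen.

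miR-222-3p, which represses the cell cycle inhibitor p27 in human cells, had 38.3, 42.3 and 45.9 CPM in middle dose livers and 9.52 and 6.52 CPM in control livers, a log2 fold change of 2.41 ± 0.32 (SE; edgeR adjusted p = 5.41e-07). Its cluster partner miR-221-3p had 116, 131 and 185 CPM in middle dose livers and 57.7 and 37.0 CPM in control livers, a log2 fold change of 1.61 ± 0.34 (SE; edgeR adjusted p = 0.000504). The groups did not overlap in either. The third tested member of that list, miR-221-5p, had 11.8, 19.6 and 12.4 CPM in middle dose livers and 9.82 and 9.08 CPM in control livers and did not pass, at 0.65 ± 0.56 (SE; edgeR adjusted p = 0.436). The list of miR-221 and miR-222 strands thus had 2 of 3 tested members higher and none lower. That is 66.7% called, against 28.4% over all miRNAs tested, in strands of the same cluster. The median log2 fold change was 1.61 against 0.03 over all miRNAs tested, and miR-222-3p had already been picked as a leading rise.

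The remaining leading rises were smaller and came from the miR-423, miR-193b, miR-145 and miR-361 hairpins. miR-423-3p had 465, 346 and 314 CPM in middle dose livers and 79.2 and 75.6 CPM in control livers, a log2 fold change of 2.27 ± 0.29 (SE; edgeR adjusted p = 2.64e-07). miR-423-5p, the other arm, had 325, 430.4 and 338 CPM in middle dose livers and 84.2 and 81.7 CPM in control livers, a log2 fold change of 2.14 ± 0.24 (SE; edgeR adjusted p = 2.42e-08). miR-193b-3p had 96.0, 87.4 and 65.2 CPM in middle dose livers and 17.9 and 22.1 CPM in control livers, a log2 fold change of 2.04 ± 0.31 (SE; edgeR adjusted p = 4.3e-06). Each of these had every treated library above both controls, as the naming rule required. miR-145-5p, a miRNA of smooth muscle and of stellate cells, had 327, 384 and 370.5 CPM in middle dose livers and 112 and 82.1 CPM in control livers, a log2 fold change of 1.90 ± 0.27 (SE; edgeR adjusted p = 2.1e-06). miR-361-5p had 101, 117 and 91.7 CPM in middle dose livers and 34.5 and 24.9 CPM in control livers, a log2 fold change of 1.80 ± 0.28 (SE; edgeR adjusted p = 5.43e-06). All 12 leading rises kept their direction and their call under all 16 alternative settings.

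**Figure D2:**
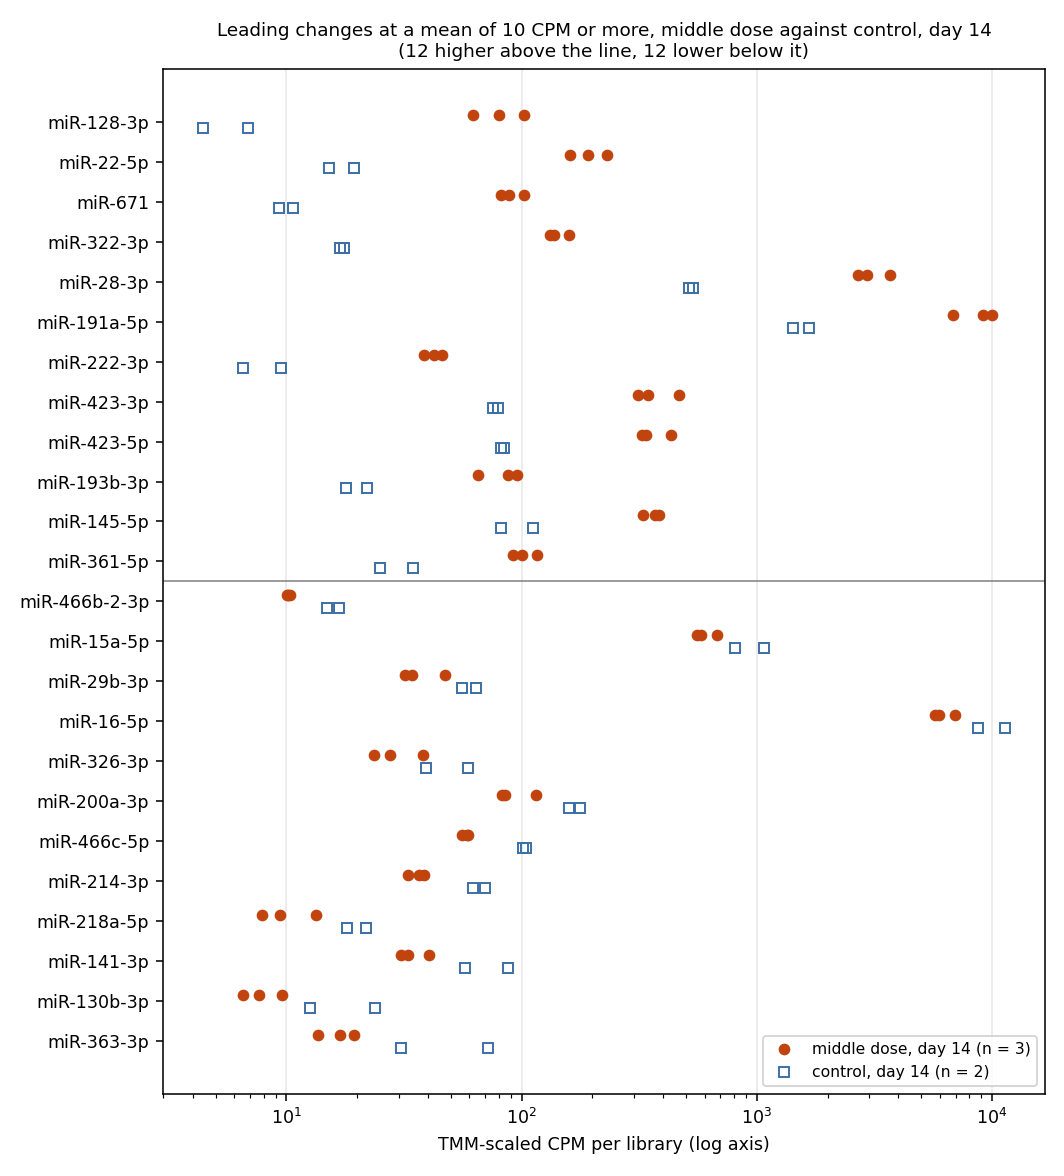
Points are single libraries of day 14, with TMM-scaled CPM on a log axis: filled circles are the 3 middle dose libraries and open squares the 2 control libraries. The 12 leading rises stand above the line and the 12 leading falls below it; the groups are farther apart in the rises, and control replicates differ most in miR-363-3p, at 72.0 and 30.7 CPM.

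The falls were smaller and leaned more on single control libraries. The leading falls, too, were named only where the groups did not overlap. miR-363-3p, from the X-linked relative of the miR-17/92 cluster, had 19.3, 13.6 and 17.0 CPM in middle dose livers and 72.0 and 30.7 CPM in control livers. All 3 treated libraries lay below both controls, and the log2 fold change was -1.63 ± 0.28 (SE; edgeR adjusted p = 2.62e-05). Without control replicate 1 it was -0.90 and still passed. miR-466c-5p, from a rodent miRNA cluster in an intron of Sfmbt2, had 58.6, 59.2 and 55.6 CPM in middle dose livers and 105 and 101 CPM in control livers, a log2 fold change of -0.83 ± 0.22 (SE; edgeR adjusted p = 0.00518). These were the 2 lower calls, of 33, that held under all 16 alternatives.

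Of the other leading falls, 3 come from seed groups tied to epithelia or to lipid genes. miR-141-3p, which with its relatives represses the ZEB factors and so keeps cells epithelial, had 32.8, 30.9 and 40.3 CPM in middle dose livers and 87.5 and 57.7 CPM in control livers, a log2 fold change of -1.06 ± 0.34 (SE; edgeR adjusted p = 0.021). miR-200a-3p, its close relative, had 82.2, 85.4 and 115 CPM in middle dose livers and 177 and 159.6 CPM in control livers, a log2 fold change of -0.83 ± 0.22 (SE; edgeR adjusted p = 0.00503). miR-130b-3p, which represses PPARG in human fat cell precursors, had 6.55, 9.54 and 7.62 CPM in middle dose livers and 23.8 and 12.6 CPM in control livers, a log2 fold change of -1.16 ± 0.26 (SE; edgeR adjusted p = 0.000843). The groups did not overlap in these 3, but none passed without control replicate 1, where the values were -0.73 for miR-141-3p, -0.76 for miR-200a-3p and -0.64 for miR-130b-3p. miR-141-3p also did not pass without middle dose replicate 2 (-1.03).

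miR-214-3p, a miRNA of fibroblasts and stellate cells, had 38.3, 36.8 and 32.8 CPM in middle dose livers and 69.9 and 62.1 CPM in control livers, a log2 fold change of -0.88 ± 0.24 (SE; edgeR adjusted p = 0.00518). miR-218a-5p, from hairpins in introns of Slit genes, had 7.86, 9.42 and 13.4 CPM in middle dose livers and 21.7 and 18.2 CPM in control livers, a log2 fold change of -0.93 ± 0.35 (SE; edgeR adjusted p = 0.0442). miR-326-3p had 23.6, 27.5 and 38.0 CPM in middle dose livers and 59.2 and 39.1 CPM in control livers, a log2 fold change of -0.71 ± 0.24 (SE; edgeR adjusted p = 0.0249). Its highest treated library was just under its lower control. miR-214-3p did not pass without control replicate 1 (-0.79), and miR-326-3p not without control replicate 1 (-0.38) or middle dose replicate 1 (-0.62), or with the 2 groups fitted alone (-0.68). The call of miR-218a-5p was lost without control replicate 1 (-0.80), control replicate 2 (-1.03), middle dose replicate 1 (-0.85) or middle dose replicate 2 (-0.92), or with run 2 alone (-0.90). miR-29b-3p, which represses collagen genes, had 32.1, 34.1 and 47.5 CPM in middle dose livers and 56.0 and 64.2 CPM in control livers, a log2 fold change of -0.66 ± 0.19 (SE; edgeR adjusted p = 0.00841), and did not pass without control replicate 2 (-0.53), or with the 2 groups fitted alone (-0.64). miR-466b-2-3p had 10.2, 10.4 and 10.1 CPM in middle dose livers and 16.7 and 14.9 CPM in control livers, a log2 fold change of -0.62 ± 0.24 (SE; edgeR adjusted p = 0.0471). It held the same counts as miR-466b-4-3p and did not pass without control replicate 1 (-0.54), control replicate 2 (-0.68), middle dose replicate 1 (-0.66) or middle dose replicate 3 (-0.61), or with no filter on low counts (-0.66), with the replicate block (-0.61), with run 2 alone (-0.61), with the 2 groups fitted alone (-0.60) or with the libraries of day 14 alone (-0.64).

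The miR-15/16 family, whose shared seed targets cyclins and BCL2, had 4 of its 6 tested members lower and none higher (66.7% called, against 28.4% over all miRNAs tested), with a median log2 fold change of -0.49. miR-16-5p had 5754, 6967 and 5974 CPM in middle dose livers and 8743 and 11363 CPM in control livers, a log2 fold change of -0.69 ± 0.17 (SE; edgeR adjusted p = 0.0026). miR-15a-5p, its cluster partner, had 558, 577 and 679.6 CPM in middle dose livers and 806 and 1079 CPM in control livers, a log2 fold change of -0.64 ± 0.16 (SE; edgeR adjusted p = 0.00356). Every treated library lay below both controls in both, which the rule for naming leading falls required. miR-497-5p fell by 0.53 on the log2 scale, to 874, 809 and 954 CPM in middle dose livers, against 1122 and 1408 CPM in control livers (edgeR adjusted p = 0.0295). miR-322-5p fell by 0.46, to 403, 381 and 469.7 CPM in middle dose livers, against 574 and 575 CPM in control livers (edgeR adjusted p = 0.0226). miR-15b-5p (-0.34 ± 0.21) and miR-195-5p (-0.33 ± 0.19) did not pass. Without control replicate 2 none of the 4 passed, at -0.46 for miR-16-5p, -0.39 for miR-15a-5p, -0.33 for miR-497-5p and -0.43 for miR-322-5p. miR-322-5p also did not pass without control replicate 1 (-0.46) or middle dose replicate 2 (-0.46). With the 2 groups fitted alone miR-15a-5p (-0.62), miR-497-5p (-0.50) and miR-322-5p (-0.43) did not pass. Under both other scalings the calls in this family were lower ones, 4 with DESeq2's size factors and 6 with library size alone.

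For many hairpins a single arm was called, which does not by itself show that the arms differed. Both arms were tested under matching names for 96 hairpins: both passed in 9, one arm in 37 and neither in 50. Strands with numbered names that lack a match, such as miR-30c-1-3p and miR-125b-2-3p, were not paired, so these counts leave their hairpins out. Of the 9, both arms were higher in 5 (miR-22, miR-148a, miR-339, miR-361 and miR-423), both lower in 2 (miR-10a and miR-126a) and opposite in 2 (miR-322 and miR-3558). Some of these calls were weak. Without middle dose replicate 1, miR-10a-5p (-0.38), miR-10a-3p (-0.45) and miR-361-3p (0.51) did not pass. Nor did they with the 2 groups fitted alone (-0.34, -0.42 and 0.70 in that order), without middle dose replicate 3 (-0.29, -0.43 and 0.57), with the replicate block (-0.33, -0.47 and 0.60) or with no filter on low counts (-0.40, -0.48 and 0.63). Their calls, and that of miR-339-5p, were also lost without control replicate 2 (-0.17, -0.38, 0.64 and 0.69 in that order). The 3p arm of miR-322 made up 28.3%, 25.8% and 22.6% of its hairpin's counts in middle dose livers, against 2.97% and 2.87% in control livers. The share was far above both controls in every treated library, and the 2 arms were called in opposite directions. In the miR-28 hairpin the 3p arm held 84.4%, 82.5% and 81.7% of the counts in middle dose livers and 42.2% and 42.0% in control livers. Its 5p arm did not pass, at -0.19, and the 3p arm was the minor one in control livers and the major one in treated livers. In the miR-145 hairpin the 3p arm held 45.8%, 44.1% and 37.4% in middle dose livers and 69.2% and 78.3% in control livers. There the 5p arm rose while miR-145-3p did not pass, at -0.04 ± 0.21 (SE; edgeR adjusted p = 0.942). In the miR-191a hairpin the rise was in the 5p arm, which already held 98.6% and 98.0% of the counts in control livers. miR-3558 is close to the detection limit, with 8.52, 4.96 and 7.50 CPM for its 3p arm in middle dose livers and 1.49 and 1.86 CPM in control livers; its 5p call was lost under 7 of 15 alternatives. How reads were assigned to the arms is not given in the sources used here.

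**Figure D3:**
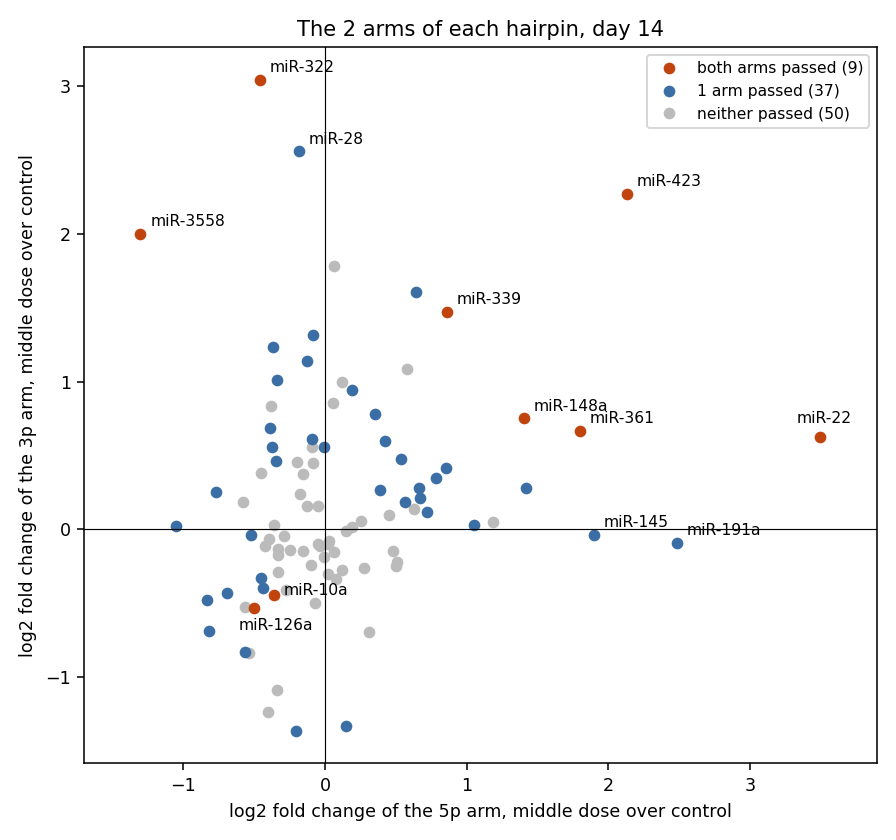
Each point is one of 96 hairpins with both arms tested under matching names. The x axis is the log2 fold change of the 5p arm and the y axis that of the 3p arm, middle dose over control on day 14. Near an axis one arm has a value close to 0: miR-28 lies high, at 2.56 for the 3p arm, and miR-191a and miR-145 lie far right, at 2.48 and 1.90 for the 5p arm. miR-322 lies high on the left, at 3.04 for the 3p arm and -0.46 for the 5p arm.

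Of 32 seed groups with at least 2 tested members, 23 held a call and 2 held calls in both directions. One was the miR-25/92 group. miR-92a-3p had 14475, 9461 and 10323 CPM in middle dose livers and 5775 and 4946 CPM in control livers, a rise with a log2 fold change of 1.09 ± 0.20 (SE; edgeR adjusted p = 6.61e-05). miR-92b-3p, with the same seed and a nearly identical tail, had 13.4, 16.5 and 12.2 CPM in middle dose livers and 2.08 and 1.86 CPM in control livers, a rise of 2.82 ± 0.36 (SE; edgeR adjusted p = 1.96e-07). miR-363-3p fell, as given above, while miR-25-3p (-0.34 ± 0.16) and miR-32-5p (-0.34) did not pass. Over the wider list of the miR-17 to miR-92a cluster with its paralogous clusters, known for their part in cell proliferation, 3 of 17 tested members were higher (miR-92a-3p, miR-92b-3p and miR-19a-3p) and 2 lower (miR-363-3p and miR-17-5p), which at 29.4% called is close to the 28.4% over all miRNAs tested, with a median of -0.05 (3 higher and 4 lower with DESeq2's size factors, 3 higher and 7 lower with library size alone). miR-19a-3p had 83.2, 53.2 and 87.7 CPM in middle dose livers and 42.0 and 44.4 CPM in control livers, a log2 fold change of 0.78 ± 0.22 (SE; edgeR adjusted p = 0.00841), and did not pass without control replicate 1 (0.74) or middle dose replicate 1 (0.65), or with the 2 groups fitted alone (0.81). miR-17-5p (-0.51 ± 0.16) did not pass without control replicate 1 (-0.54), control replicate 2 (-0.44) or middle dose replicate 2 (-0.43), or with the 2 groups fitted alone (-0.48). Reads of miRNAs that differ by few bases may be shared between them.

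The other split group was miR-34, whose genes are switched on by p53. miR-34a-5p had 26.2, 20.9 and 31.4 CPM in middle dose livers and 14.9 and 10.0 CPM in control livers. The treated libraries lay above both controls, and the log2 fold change was 1.08 ± 0.36 (SE; edgeR adjusted p = 0.0249). The call was lost under 6 of the 16 alternatives, among them the fits without control replicate 2 (0.84), middle dose replicate 1 (1.04) or middle dose replicate 3 (0.92). miR-34c-5p had 71.4, 48.6 and 87.7 CPM in middle dose livers and 183 and 61.9 CPM in control livers. The controls differed widely from each other and the groups overlapped. The log2 fold change was -0.82 ± 0.29 (SE; edgeR adjusted p = 0.0367), and the call was lost under 5 of the 16 alternatives. It became 0.16 without control replicate 1 (not passed), -1.38 without control replicate 2 and -0.64 without middle dose replicate 2, where it did not pass. miR-34b-5p (-0.03 ± 0.53) and miR-34c-3p (-0.69 ± 0.82) did not pass, so the p53-linked list had 1 of 4 tested members higher and 1 lower, with a median of -0.36 (none higher and 1 lower with library size alone). The share called was 50%, against 28.4% over all miRNAs tested, and both calls were lost under some alternatives.

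The miR-30 family, abundant in liver and picked out after its values were seen, had its 5p arms higher together, against 18.3% higher over all miRNAs tested. miR-30d-5p had 18358, 19490.4 and 21319 CPM in middle dose livers and 7039 and 7714 CPM in control livers, a log2 fold change of 1.42 ± 0.18 (SE; edgeR adjusted p = 3.16e-07). miR-30e-5p had 13367, 14795 and 18096 CPM in middle dose livers and 8519 and 10155 CPM in control livers, a log2 fold change of 0.72 ± 0.14 (SE; edgeR adjusted p = 0.000132). No treated library reached down to a control in either. miR-30c-5p (0.63 ± 0.12), miR-30b-5p (0.56 ± 0.12) and miR-30a-5p (0.38 ± 0.10) also rose. The call of miR-30a-5p was lost under 5 of the 16 alternatives, among them leaving out control replicate 1 (0.31) and library size alone (0.17), while the other 4 passed under all 16 alternatives.

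Lists of miRNAs with known liver roles gave mixed counts. Of the 16 hepatocyte-abundant miRNAs, all tested, 6 were higher and none lower (37.5% called, against 28.4% over all miRNAs tested), with a median log2 fold change of 0.08, but 5 higher and 1 lower with DESeq2's size factors and 3 higher and 5 lower with library size alone, where the median was -0.13. Besides miR-22-3p and miR-148a-3p these were miR-148a-5p (1.40 ± 0.24), miR-378a-3p (0.47 ± 0.13), miR-30a-5p and miR-194-3p (0.61 ± 0.23). miR-148a-5p, the passenger strand, had 3697, 4166 and 3392 CPM in middle dose livers and 1562 and 1277 CPM in control livers (edgeR adjusted p = 2.61e-05). The call of miR-194-3p was lost under 13 of 16 alternatives, among them the fits without control replicate 1 (0.83), control replicate 2 (0.45), middle dose replicate 1 (0.36) or middle dose replicate 2 (0.66). That of miR-378a-3p was lost under 5, among them the fits without control replicate 1 (0.32), middle dose replicate 1 (0.38) or middle dose replicate 2 (0.43). The summed level of the 16 was 623549 to 710411 CPM in middle dose livers and 511151 to 556481 CPM in control livers. Its largest parts were miR-22-3p and miR-192-5p. No other tissue was compared, so the sum does not test the liver label.

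Among 4 miRNAs that target drug-metabolism genes in human liver cells, 2 were higher, miR-148a-3p and miR-34a-5p, and none lower, with a median of 0.28 (2 higher and 1 lower with DESeq2's size factors, 1 higher and 2 lower with library size alone). That is 50% called, against 28.4% over all miRNAs tested. miR-27b-3p, which represses CYP3A4 in human cells, had 32816, 37652 and 25989 CPM in middle dose livers and 35805 and 37549.8 CPM in control livers, at -0.19 ± 0.12 (SE; edgeR adjusted p = 0.279), and miR-24-3p was at -0.36 ± 0.17 (SE; edgeR adjusted p = 0.128). The sterol-linked list, which holds miR-33 from an intron of Srebf2 and the miR-183/96/182 cluster, had 1 of 5 members higher and none lower, with a median of 0.53 (1 higher and 1 lower under both other scalings). That is 20% called, below the 28.4% over all miRNAs tested. miR-182 had 1448, 2394 and 2215 CPM in middle dose livers and 952 and 922 CPM in control livers, a log2 fold change of 1.11 ± 0.24 (SE; edgeR adjusted p = 0.000748). Every treated library was above both controls, and the call held under all 16 alternatives. Its cluster mates miR-183-5p (0.53 ± 0.47, edgeR adjusted p = 0.454) and miR-96-5p (0.72 ± 0.37, edgeR adjusted p = 0.157) did not pass. miR-33-5p, which represses ABCA1, had 58.0, 45.6 and 57.1 CPM in middle dose livers and 63.1 and 77.5 CPM in control livers and did not pass either, at -0.40 ± 0.19 (SE; edgeR adjusted p = 0.129). miR-331-3p had 81.9, 61.8 and 122 CPM in middle dose livers and 34.2 and 41.2 CPM in control livers, a log2 fold change of 1.23 ± 0.31 (SE; edgeR adjusted p = 0.00341). The treated libraries ranged widely but all lay above both controls, and the call was lost without control replicate 1 (1.10).

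Lists of miRNAs that mark other cell types were read for the make-up of the samples. In whole tissue, fewer cells of a type and less RNA per cell cannot be told apart. Both arms of endothelial miR-126a, encoded within Egfl7, were lower, against 10.1% lower over all miRNAs tested, and they come from the same hairpin. Their summed level was 20376 to 22789 CPM in middle dose livers and 29203 to 32940 CPM in control livers. miR-126a-5p had 16950.2, 18380.3 and 15117 CPM in middle dose livers and 22777 and 24839 CPM in control livers, a log2 fold change of -0.50 ± 0.11 (SE; edgeR adjusted p = 0.000504). miR-126a-3p had 5383, 4408 and 5259.6 CPM in middle dose livers and 6427 and 8101 CPM in control livers, a log2 fold change of -0.53 ± 0.17 (SE; edgeR adjusted p = 0.0211). The treated libraries lay below both controls in each, and miR-126a-3p did not pass without control replicate 2 (-0.33) or middle dose replicate 2 (-0.52), or with the 2 groups fitted alone (-0.51). miR-126a-5p did not pass with the 2 groups fitted alone (-0.48). Of 7 tested miRNAs of bile duct and other epithelia, 2 were lower (miR-141-3p and miR-200a-3p) and none higher, with a median of -0.44. That is 28.6% called, close to the 28.4% over all miRNAs tested, and neither passed without control replicate 1. Their sum was 674 to 1051 CPM in middle dose livers and 949 to 1058 CPM in control livers. Of 7 tested miRNAs of stellate and smooth muscle cells, miR-145-5p was higher and miR-214-3p lower, with a median of -0.04 and a sum of 45929 to 57212 CPM in middle dose livers and 42288 to 48327 CPM in control livers. At 28.6% called, this list too was close to the 28.4% over all miRNAs tested. The most abundant of that list, miR-143-3p, did not pass, at 0.16 ± 0.12 (SE; edgeR adjusted p = 0.369).

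No miRNA on the blood, muscle, or pancreas and nerve lists passed with all libraries in the fit, against 28.4% called over all miRNAs tested. These lists are short and do not hold miR-128-3p, which is abundant in brain and was higher. Without control replicate 1, miR-342-3p of white blood cells (1.21, edgeR adjusted p = 0.0102, against 0.45 with all libraries) and miR-9a-5p of nerve (1.83, edgeR adjusted p = 0.0314, against 1.05) passed. Without middle dose replicate 1, miR-486 of red blood cells passed (1.07, edgeR adjusted p = 0.0471). The 7 tested miRNAs of white blood cells had a median of -0.08, and their sum was 2431 to 3167 CPM in middle dose livers and 1894 to 3110 CPM in control livers. miR-142-5p, their most abundant, had 1732, 1804 and 2232 CPM in middle dose livers and 2067 and 1113 CPM in control livers (0.27 ± 0.24). The 4 miRNAs of red blood cells had a median of 0.36, and their sum was 2174 to 4516 CPM in middle dose livers and 1781 to 2149 CPM in control livers. miR-486 had 1846, 4076 and 2604 CPM in middle dose livers and 1715 and 1403 CPM in control livers, at 0.87 ± 0.38 (SE; edgeR adjusted p = 0.0937), and miR-451-5p was at 0.22 ± 0.36. Muscle miRNAs were scarce, with a sum of 23.2 to 27.2 CPM in middle dose livers and 18.2 to 28.6 CPM in control livers. miR-1-3p, miR-206-3p, miR-208a-3p and miR-208b-3p had 0 counts in all 5 libraries, and the 2 tested members had a median of 0.16 (-0.07 with library size alone). The pancreas and nerve list had 2 tested members with a median of 0.48. Its sum, mostly miR-375-3p, was 236 to 318 CPM in middle dose livers and 270 to 324 CPM in control livers, and miR-124-3p had 0 counts in all 5. The part of these cell types in the other changes was not tested.

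Stress and growth lists were also counted. None of 8 tested inflammation-linked miRNAs passed, against 28.4% over all miRNAs tested, with a median of -0.04 (1 lower with library size alone). miR-155-5p had 17.0, 19.1 and 20.7 CPM in middle dose livers and 27.1 and 23.3 CPM in control livers (-0.40 ± 0.29). Of the hypoxia-linked arms of miR-210, the guide miR-210-3p did not pass (0.02 ± 0.16). The low passenger miR-210-5p fell to 5.24, 4.21 and 4.80 CPM in middle dose livers, against 6.25 and 13.0 CPM in control livers (-1.05 ± 0.29, edgeR adjusted p = 0.00652), and did not pass without control replicate 2 (-0.39), or with the 2 groups fitted alone (-1.04). The median of those 2 was -0.51, with 50% called against 28.4% over all miRNAs tested. Of 9 let-7 guide strands, which hold back growth, let-7d-5p was lower (-0.38 ± 0.13, edgeR adjusted p = 0.0278) and none higher, with a median of -0.19 (2 lower with DESeq2's size factors, 5 with library size alone). That is 11.1% called, below the 28.4% over all miRNAs tested. let-7d-5p did not pass without control replicate 1 (-0.41), control replicate 2 (-0.31) or middle dose replicate 3 (-0.32), or with the 2 groups fitted alone (-0.35). Of 5 miR-29 strands, miR-29b-3p was lower and none higher (20% called, below the 28.4% over all miRNAs tested), with a median of -0.01. Of 9 strands of the miR-23/24/27 clusters, 2 were lower, miR-24-2-5p (-0.62 ± 0.19, edgeR adjusted p = 0.0164) and miR-23a-3p (-0.38 ± 0.13, edgeR adjusted p = 0.0261), and none higher, with a median of -0.36 (5 lower with DESeq2's size factors, 7 with library size alone). At 22.2% called, this was below the 28.4% over all miRNAs tested. miR-24-2-5p did not pass without control replicate 1 (-0.68), control replicate 2 (-0.53) or middle dose replicate 1 (-0.57), or with the 2 groups fitted alone (-0.60), and miR-23a-3p not without control replicate 1 (-0.33) or control replicate 2 (-0.39), or with no filter on low counts (-0.41) or with the 2 groups fitted alone (-0.35). Of 10 strands of miR-99, miR-100 and miR-125, 3 were higher and none lower, which at 30% called is close to the 28.4% over all miRNAs tested, with a median of 0.10 (1 higher and 2 lower with library size alone, median -0.12). miR-125b-2-3p, a passenger strand, had 297, 272 and 253 CPM in middle dose livers and 94.4 and 93.5 CPM in control livers (1.54 ± 0.19, edgeR adjusted p = 1.96e-07). The call of miR-125a-5p (0.78 ± 0.24) was lost without control replicate 1 (0.76), control replicate 2 (0.84) or middle dose replicate 2 (0.52), or with library size alone (0.55) or with no filter on low counts (0.75). That of miR-99a-3p (0.68 ± 0.23) was lost under 10 of 16 alternatives, among them the fits without control replicate 1 (0.63), control replicate 2 (0.76), middle dose replicate 1 (0.60) or middle dose replicate 3 (0.41). None of 9 tested miRNAs of the imprinted Dlk1-Dio3 locus passed with all libraries in the fit, against 28.4% over all miRNAs tested. However, miR-434-3p did with the 2 groups fitted alone (1.16, edgeR adjusted p = 0.0387) and with the libraries of day 14 alone (1.12, edgeR adjusted p = 0.0495). Their median was 0.51 and their sum 37.8 to 73.6 CPM in middle dose livers and 30.9 to 38.7 CPM in control livers.

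Against the low dose, the same 3 middle dose libraries again differed widely, with rises larger than falls. Of 328 miRNAs, 111 (33.8%) passed between middle and low dose on day 14, 73 (22.3%) higher and 38 (11.6%) lower in middle dose livers. The split was 61 higher and 50 lower with DESeq2's size factors, and 46 higher and 84 lower with library size alone. miR-128-3p had a mean of 81.6 ± 19.9 CPM in middle dose livers and 6.78 ± 0.925 CPM in low dose livers (SD, n = 3 each), a log2 fold change of 3.58 ± 0.35 (SE; edgeR adjusted p = 1.6e-09). The other leading rises over the low dose were miR-22-5p (3.55 ± 0.25), miR-322-3p (2.86 ± 0.20) and miR-191a-5p (2.70 ± 0.19). The leading falls were miR-141-3p (-1.06 ± 0.31), miR-200a-3p (-1.06 ± 0.20), miR-363-3p (-0.96 ± 0.26) and miR-466c-5p (-0.83 ± 0.20), at edgeR adjusted p values of 0.00997, 0.000116, 0.00455 and 0.0019 in that order. Without low dose replicate 1, 73 miRNAs passed (56 higher, 17 lower), and without middle dose replicate 3, 84 passed (61 higher, 23 lower). Low dose libraries set against the controls of day 14 gave no call in edgeR, with 11 miRNAs at an unadjusted p under 0.05. This dose step was read on day 14 alone, and the low dose libraries of day 7 lay in the cluster of the middle dose.

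From the middle to the high dose few further changes were seen. Of 328 miRNAs, 3 (0.915%) passed between high and middle dose on day 14, all lower in high dose livers, and 49 had an unadjusted p under 0.05. DESeq2 called 17, of which 11 were lower and 6 higher. miR-99a-5p had 1481, 1322 and 1489.9 CPM in high dose livers and 2959, 3229.5 and 2243 CPM in middle dose livers, a log2 fold change of -0.97 ± 0.21 (SE; edgeR adjusted p = 0.00865). miR-125b-5p, one copy of which is encoded close to miR-99a, had 1835, 1916 and 1992 CPM in high dose livers and 3525, 4018 and 2930.2 CPM in middle dose livers, a log2 fold change of -0.87 ± 0.17 (SE; edgeR adjusted p = 0.00657). miR-145-3p had 152, 153 and 128 CPM in high dose livers and 276, 303 and 221 CPM in middle dose livers, a log2 fold change of -0.89 ± 0.19 (SE; edgeR adjusted p = 0.00719). The high dose libraries lay below every middle dose library in all 3. None of these 3 had passed between middle dose and control in the main fit, where the values were -0.39 ± 0.23, -0.25 ± 0.19 and -0.04 ± 0.21. With library size alone miR-99a-5p (-0.61, edgeR adjusted p = 0.0386) and miR-125b-5p (-0.46, edgeR adjusted p = 0.0454) did pass as lower than control. No miRNA passed without middle dose replicate 2 or without high dose replicate 1, while 5 passed without middle dose replicate 3, 2 without high dose replicate 2 and 1 without high dose replicate 3. For the leading rises the high dose differed from the middle dose by 0.05 ± 0.30 (miR-128-3p), 0.33 ± 0.22 (miR-22-5p), -0.03 ± 0.18 (miR-28-3p) and -0.06 ± 0.17 (miR-191a-5p) on the log2 scale, none of which passed; a change of about the size of these errors would not be detectable with 3 libraries a group.

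**Figure D4:**
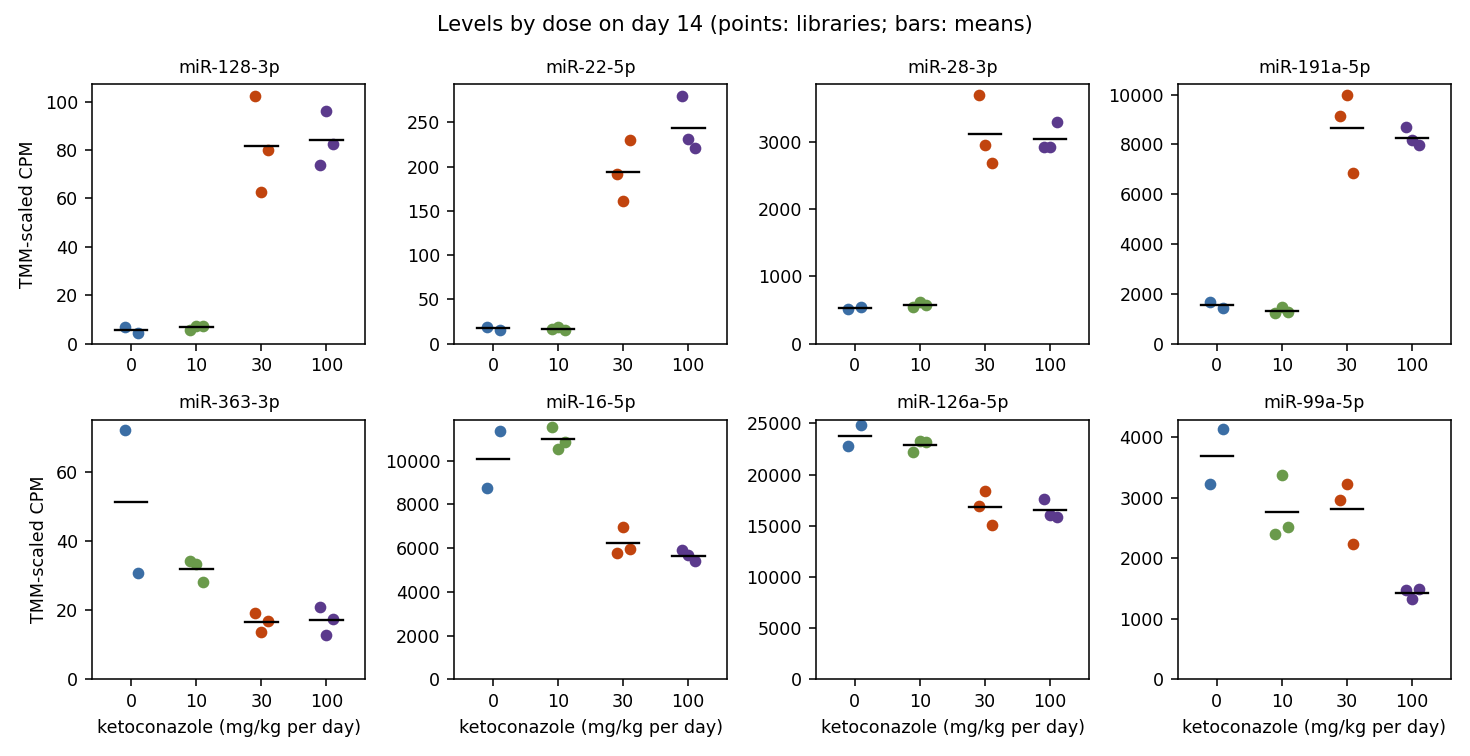
TMM-scaled CPM of 8 miRNAs on day 14 by dose (0, 10, 30 and 100 mg/kg per day), with a point per library and a bar at the group mean; y axes start at 0. Control and low dose lie together in miR-128-3p, miR-22-5p, miR-28-3p and miR-191a-5p (means of 5.63 and 6.78 CPM for miR-128-3p), middle and high dose lie together well above them (81.6 and 84.2 CPM), and in miR-99a-5p the high dose lies below all other groups.

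The effect of the middle dose on day 14 was set against its effect on days 3 and 7, each with its own controls. In edgeR no miRNA passed for the difference from day 3, with 18 at an unadjusted p under 0.05 and no call in DESeq2. Leaving out middle dose day 3 replicate 3 or middle dose day 14 replicate 1 gave 1 call. None passed for the difference from day 7, with 41 at an unadjusted p under 0.05 and 2 calls in DESeq2. A p above the threshold does not show that the effects were equal. miR-128-3p had log2 fold changes of 3.68 ± 0.36 after 3 days, 4.25 ± 0.37 after 7 days and 3.86 ± 0.43 after 14 days of dosing. For miR-191a-5p they were 2.67 ± 0.19, 3.01 ± 0.19 and 2.48 ± 0.22 in the same order of days. Both were raised at each time. The smallest p values for the difference from day 3 belonged to miR-182, miR-421-3p and miR-19a-3p. miR-182 averaged 1229 ± 378 CPM in middle dose livers and 1346 ± 280.0 CPM in control livers on day 3 (SD, n = 3 each). On day 14 it averaged 2019 ± 503 CPM in middle dose livers (SD, n = 3) and 937 ± 21.9 CPM in control livers (SD, n = 2). Its effect was larger on day 14 by 1.24 ± 0.32 (SE; edgeR adjusted p = 0.162), which did not pass. The differences were -0.66 ± 0.24 for miR-421-3p and 0.80 ± 0.30 for miR-19a-3p.

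For the difference from day 7 the smallest p values belonged to miR-455-3p, miR-15b-5p and miR-16-5p, and none passed. The miR-455-3p difference was -2.30 ± 0.55 (SE; edgeR adjusted p = 0.0857), and the miRNA's control libraries of day 14 were far apart, at 141 and 43.1 CPM, with 31.1, 27.9 and 47.1 CPM in the middle dose livers. The miR-15b-5p difference was 1.07 ± 0.28 (SE; edgeR adjusted p = 0.0955) and that of miR-16-5p 0.80 ± 0.23 (SE; edgeR adjusted p = 0.177). miR-16-5p averaged 5755 ± 531 CPM in middle dose livers and 16210.3 ± 3585 CPM in control livers on day 7 (SD, n = 3 each). On day 14 the means were 6232 ± 646 CPM in middle dose livers (SD, n = 3) and 10053 ± 1853 CPM in control livers (SD, n = 2). The treated means were close on both days, while the controls were higher on day 7. Without control day 7 replicate 1, 19 miRNAs passed for this difference, 2 passed without control day 14 replicate 2, and 1 passed without middle dose day 7 replicate 1 or 2.

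**Figure D5:**
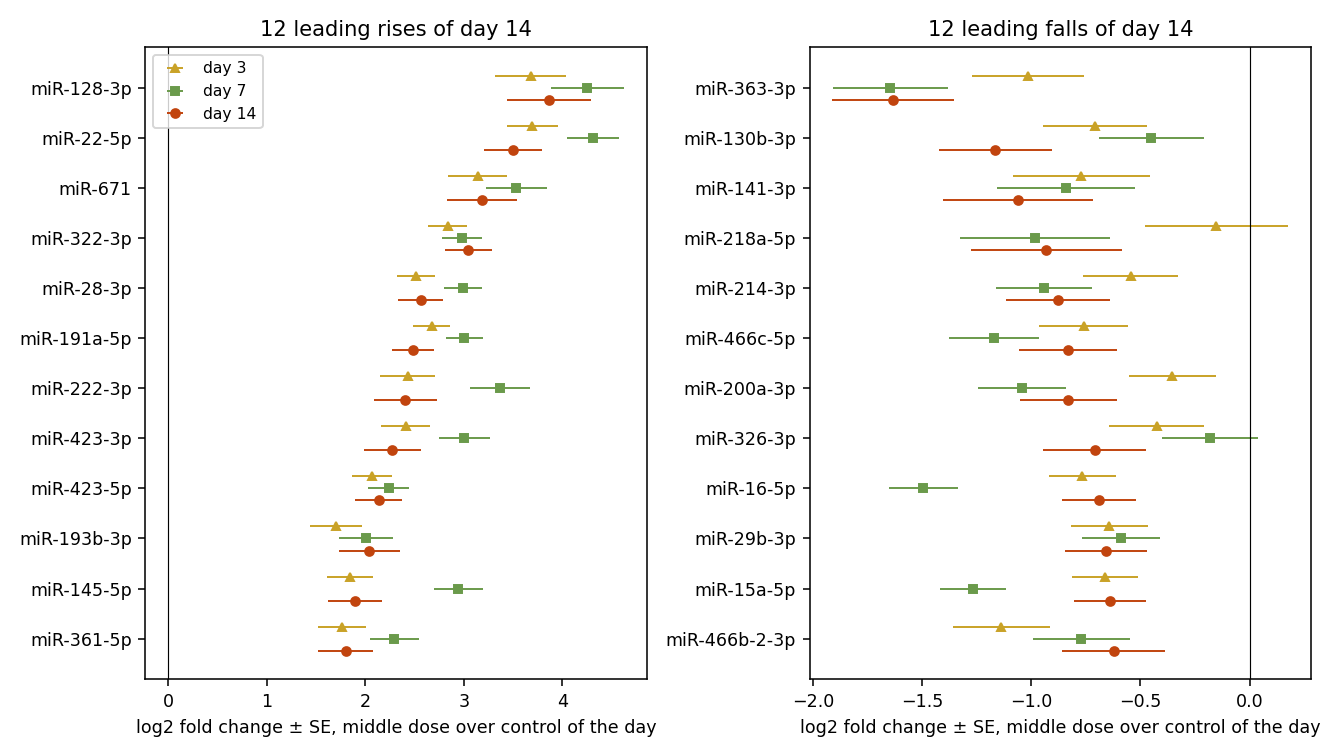
Log2 fold change of the middle dose over the control of the same day, with its SE as a bar, for the 12 leading rises (left) and the 12 leading falls (right) of day 14, on days 3, 7 and 14. The rises lie at similar sizes on the 3 days, from 3.68 to 4.25 for miR-128-3p, and miR-16-5p and miR-15a-5p are farther from 0 on day 7, at -1.49 and -1.27.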

How the data were processed

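Small RNA from rat liver was measured in 35 libraries; per the labels' protocols, RNeasy Plus Universal Mini kits served for RNA extraction and TruSeq Small RNA kits from Illumina for the libraries. The authors deposited raw read counts for each mature miRNA, without normalization, in 37 count columns. The genome build was rn6, per the submitters' processing notes. The aligner, the counting rules and the release of the annotation were not given in the sources used here. Counts of near-identical miRNAs and of arms are therefore uncertain. RefSeq sequences are of assembly GRCr8, so no coordinates are given.

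The 2 runs each of middle dose day 14 replicates 2 and 3 were summed. Their chi-square per degree of freedom was 8.09 and 5.74, against 236 to 600 between middle dose replicates and 83.3 between the controls, so no library was taken as a repeat of another. Of 763 miRNAs, 151 had 0 counts in all libraries and 328 passed filterByExpr (minimum count 10, minimum total 15). Counts were TMM-scaled and fitted in edgeR 4.0.16 (R 4.3.3, limma 3.58.1) with a mean per group over all 35 libraries and 23 residual degrees of freedom. Contrasts were tested with robust quasi-likelihood F tests, two-sided, with Benjamini-Hochberg adjustment over the 328 and a threshold of 0.05. The SE was taken as the size of the log2 fold change over the root of its F value. With no separate origin stated for the replicates, p-values measure the spread between samples. The control mean of day 14 rests on 2 libraries.

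The miRNAs and lists were chosen with earlier results of these data known. For the comparison with controls, the 12 largest rises and falls were named that passed, had a mean of at least 10 CPM over the 5 libraries and had all middle dose libraries on one side of both controls. For other comparisons the 4 largest each way that passed with a mean of at least 10 CPM were named, or the 3 smallest p. Up to 4 members of each list, the 6 most abundant miRNAs, miR-331-3p, and the liver and injury markers miR-21-5p, miR-122-5p, miR-34a-5p and miR-192-5p could always be named. Any other miRNA named was chosen after its values were seen. On simulated counts with 200 changed miRNAs, the comparison with controls recovered 40.3% of 1.5-fold, 82.1% of 2-fold and 95.5% of 4-fold changes, with 4 calls among 128 unchanged miRNAs. More miRNAs were changed there than the 93 called in the data, so these shares may not hold for the data. The alternatives tried were scaling by DESeq2's size factors or by library size alone, no filter, a stricter filter (10 CPM in 3 libraries), either run alone, counts thinned to 2665943 per library, DESeq2 1.42.0, fits on fewer groups, a replicate block and leaving out each replicate. Tables and plots were made with pandas 2.3.3 and matplotlib 3.10.9 in Python 3.11.15.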

Additional observations from a re-analysis of the deposited data

How the results depend on the processing

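In the comparison of middle dose with control livers, the called miRNAs numbered 93, and between 54 and 90 when single replicates were left out. Fitting the 2 groups alone gave 57. With counts thinned to one depth 49 were higher and 46 lower, and with DESeq2 58 were higher and 45 lower. The lower calls numbered 33, against 72 with library size alone, 9 with the 2 groups alone and 11 to 29 without single replicates. Across 16 alternatives 38 of the 93 calls were kept throughout, 36 higher and 2 lower. Of the 93 called values, 1 changed sign under an alternative: miR-34c-5p was 0.16 without control replicate 1 (-1.38 without control replicate 2). Of the 50 values given that did not pass, 18 changed sign, and 1 of these passed on the other side: miR-192-5p was -0.20 with library size alone. Against the low dose, the counts were 111 called and 73 to 111 without single replicates. With library size alone 46 were higher and 84 lower, and without single replicates 17 to 48 were lower. Between high and middle dose the 3 calls became 7 with the stricter filter, 17 with DESeq2 (11 lower, 6 higher), 5 with the 2 groups alone, 5 with the libraries of day 14 alone, and 0 to 5 without single replicates. For the difference from day 3 the count was 0 to 1 without single replicates. For the difference from day 7 it was 1 with DESeq2's size factors, with library size alone, with the stricter filter, with thinned counts and with the replicate block, 2 with DESeq2, and 0 to 19 without single replicates. The causes of these shifts were not tested. With replicate number as a block, 85 miRNAs passed against controls (58 higher, 27 lower), 98 against the low dose and 3 between high and middle dose. Whether the numbers pair the libraries is not told by the labels. Same-numbered deviations from the group means correlated at -0.19 and -0.07 between middle dose and control on day 14. With 2 control libraries these deviations mirror each other, so the values cannot decide it. On days 3 and 7 the correlations ran from -0.21 to 0.21. Depth limits miRNAs of a few CPM, such as both arms of miR-3558.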

Other observations

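Further calls were picked out after their values were seen. miR-365-3p, encoded beside the miR-193 genes, had 170.3, 144 and 124 CPM in middle dose livers and 42.9 and 45.1 CPM in control livers, a log2 fold change of 1.73 ± 0.32 (SE; edgeR adjusted p = 0.000115). miR-193a-3p, which shares its seed with miR-193b-3p, was at 0.95 ± 0.24 (SE; edgeR adjusted p = 0.00342), and did not pass without control replicate 1 (0.81). miR-186-5p had 2611, 2114 and 2126 CPM in middle dose livers and 789 and 809 CPM in control livers, a log2 fold change of 1.51 ± 0.22 (SE; edgeR adjusted p = 2.1e-06). Treated and control libraries did not overlap in these 3. Of 10 tested passenger strands of let-7, 4 were higher: let-7e-3p (1.31 ± 0.38), let-7f-2-3p (0.93 ± 0.30), and let-7a-1-3p and let-7c-2-3p (0.93 ± 0.23 each), whose mature sequences in RefSeq are identical and whose counts were the same in all 5 libraries. The last 2 are therefore not separate calls. Over all miRNAs tested 18.3% were higher. The 6 others did not pass and ranged from -0.50 (let-7g-3p) to 1.16 (let-7c-1-3p). let-7e-3p did not pass without control replicate 1 (1.24), and let-7f-2-3p not without control replicate 1 (1.07), control replicate 2 (0.82) or middle dose replicate 3 (0.67), or with library size alone (0.71), with the replicate block (0.86) or with thinned counts (0.73).

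Of the called miRNAs with a RefSeq sequence, 35 of 56 higher ones (62.5%) and 12 of 30 lower ones (40%) were 3p arms, against 94 of 206 (45.6%) that did not pass. The median GC content was 47.8% in the higher, 45.5% in the lower and 47.6% in those that did not pass. A first base of U was found in 44.6%, 23.3% and 44.2% in the same order. These are descriptions, and arms of one hairpin or members of one family are not independent.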
